A study of Cricetulus griseus with 4 samples.

Results

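Genes of the general transcription machinery were followed across 4 two-channel arrays that set a chromosomally stable clone against pools of unstable clones. The genes were taken by symbol: TAF12, TAF1B and TAF7 (TBP-associated factors), CDK7, CCNH and GTF2H3 (TFIIH), GTF2F2 (TFIIF), TCEA1 (TFIIS), BRF1 (TFIIIB) and GTF3C1 (TFIIIC). Each of the 10 symbols was on exactly 1 of the 1152 probes, and 350 probes carry 1 gene symbol. The symbols, and no threshold on a ratio, define the set. It was chosen with earlier results of these data known, so its shares beside those of all probes are descriptions.

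General transcription factors bring an RNA polymerase to a promoter and open the DNA for initiation. TFIID, made of the TATA-binding protein and its associated factors, recognises promoters of RNA polymerase II, and TFIIF escorts that polymerase to them. TFIIH carries a helicase core, which also works in nucleotide excision repair, and a kinase module in which CDK7 needs cyclin H to phosphorylate the polymerase tail and other cyclin-dependent kinases. RNA polymerases I and III use factor sets of their own, SL1 for ribosomal RNA genes and TFIIIB with TFIIIC for transfer RNA genes. These genes are active in practically every cell type.

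Channel 1 of every array carried total RNA of the stable clone RT210B, and channel 2 carried a pool with equal amounts of 2 unstable clones. Mixture 1 held clones LS12 and 10-107-9, mixture 2 held clones Fe10-3 and 10-56-11, and each was measured on 2 arrays. The organism is the Chinese hamster, and no cell type, treatment or culture condition is labelled. RT210B is 1 clone and the only control, each pool joins 2 clones, and separate cultures are not labelled, so p-values reflect array-to-array spread that may be technical. A large change in 1 clone of a pool and a smaller one in both cannot be told apart, nor can fewer cells expressing a gene and less RNA per cell.

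Values are log2 ratios between the channels, averaged over 2 adjacent spots, taken as duplicates of 1 probe, and centred on the middle probe of the array. The titles and descriptions name the pools in opposite order, so the numerator is not settled. Positive and negative are therefore sides of the array's middle, and neither is read as higher in a pool. With RT210B in the same channel throughout, a difference between the channels cannot be told apart from one between RT210B and the unstable clones. The probes are annotated with human genes, and the RefSeq annotation of the Chinese hamster lists a gene of the same symbol for 10 of the 10. Ratios were spread more widely in mixture 1 (SD over all probes 1.14 and 1.05, log2) than in mixture 2 (0.80 and 0.47). Centring subtracted medians of -0.12 and -0.22 in mixture 1 and of -0.44 and -0.53 in mixture 2, and every side named here is relative to these.

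In mixture 1 the 3 TBP-associated factors and the TFIIH kinase with its cyclin lay on the negative side, while GTF2F2 and GTF3C1 lay on the positive side. These 7 of the 10 genes passed in limma (Benjamini-Hochberg adjusted p under 0.05 over all probes), where 43.1% of all probes passed. On the negative side 5 of 10 passed, against 18.8% of all probes, and on the positive side 2 of 10, against 24.4%. The median of the 10 genes in mixture 1 was -0.75 (log2), against -0.03 over all probes. In mixture 2 none of the 10 passed, nor did any other probe. The plot of the 10 genes by array shows these values.

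**Figure D1:**
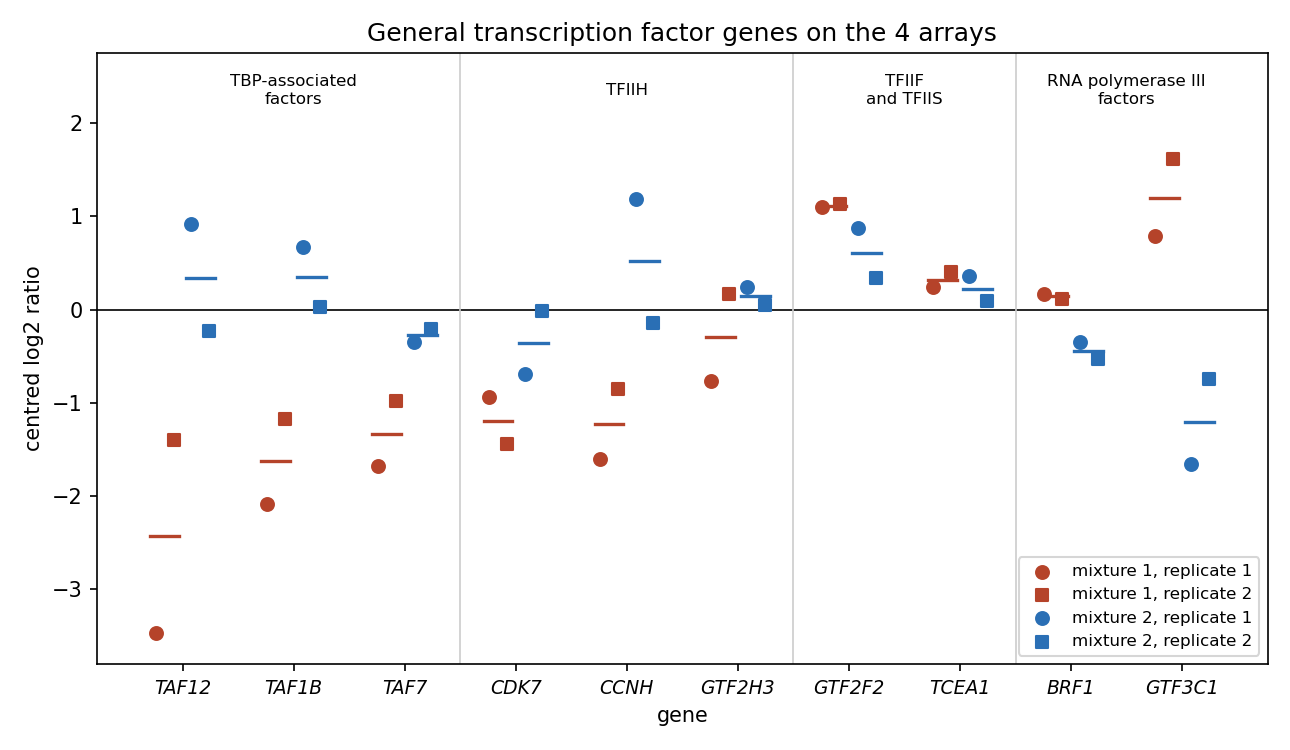
Centred log2 ratio (vertical axis) of each of the 10 genes on each of the 4 arrays, grouped by complex. Circles are replicate 1 and squares replicate 2, red is mixture 1 and blue mixture 2, and short bars are the mean of the 2 arrays. The red points of TAF12, TAF1B, TAF7, CDK7 and CCNH lie between -3.46 and -0.85, all below the blue points of the same gene.

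Among the TBP-associated factors, TAF12 is a histone-fold subunit shared by TFIID and the SAGA coactivator. Its centred log2 ratio was -3.46 (replicate 1) and -1.40 (replicate 2) in mixture 1, against 0.92 and -0.23 in mixture 2. Both arrays of mixture 1 thus lay below both arrays of mixture 2, and the arrays of mixture 2 fell on opposite sides of the middle. The mean in mixture 1 was -2.43 (SE 0.490, 2 arrays), 5.40-fold from the middle probe, and the 5th lowest of 1152 probes (limma adjusted p 0.00884). On replicate 1 of mixture 1 TAF12 had the 2nd lowest ratio of the array. Its duplicate spots there stood apart, at -4.44 and -2.71 before centring, while on replicate 2 they lay at -1.63 and -1.62. Without replicate 1 of mixture 1 the value was -1.40, and without replicate 2 it was -3.46.

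TAF1B belongs to SL1, the selectivity factor of RNA polymerase I at ribosomal RNA genes. Its centred log2 ratio was -2.08 and -1.17 in mixture 1 and 0.67 and 0.03 in mixture 2. The mixtures did not overlap and lay on opposite sides of the middle. In mixture 1 the mean was -1.63 (SE 0.340, 2 arrays; limma adjusted p 0.00902), 3.09-fold from the middle probe. TAF1B alone of the 10 genes passed in mixture 1 under all of its 12 other processing choices, with values from -2.08 to -1.16. For mixture 1, leaving out either array of mixture 2 repeats the fit on the 2 arrays of mixture 1, so those choices are not separate tests. TAF1B was not among the 4 genes tested over probes with duplicate spots within 0.5 on every array.

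TAF7, the TFIID subunit known to restrain the acetyltransferase activity of TAF1, had centred ratios of -1.68 and -0.98 in mixture 1 and of -0.34 and -0.21 in mixture 2. All 4 arrays were negative, those of mixture 1 farther out. Its mean in mixture 1 was -1.33 (SE 0.307, 2 arrays; limma adjusted p 0.0115). TAF12 and TAF1B were at least 2-fold from the middle on the negative side on both arrays of mixture 1, as were 9.55% of all probes, whereas TAF7 fell short of this on replicate 2. Without replicate 1 of mixture 1, TAF7 was at -0.98 and no longer passed (limma adjusted p 0.0762).

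Within TFIIH the kinase CDK7 had centred ratios of -0.94 and -1.45 in mixture 1 and of -0.69 and -0.02 in mixture 2. It was negative on all 4 arrays, with both arrays of mixture 1 below both of mixture 2. The mean in mixture 1 was -1.19 (SE 0.316, 2 arrays; limma adjusted p 0.0182), or 2.29-fold. CDK7 and TAF7 were the 2 of 10 genes negative on all 4 arrays, as were 19.9% of all probes.

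Its partner cyclin H, CCNH, lay at -1.60 and -0.85 in mixture 1, against -0.94 and -1.45 for CDK7, with the replicates in opposite order. In mixture 2 CCNH lay at 1.18 on replicate 1, above 98.5% of the probes of that array, and at -0.14 on replicate 2. The mean in mixture 1 was -1.22 (SE 0.382, 2 arrays; limma adjusted p 0.0312). Kinase and cyclin were therefore on the same side on both arrays of mixture 1 and on replicate 2 of mixture 2, and on opposite sides on replicate 1 of mixture 2. By Euclidean distance over the 4 arrays, CDK7 and CCNH were 2.07 apart, the 18th closest of 45 pairs among the 10 genes, with a median of 2.27 over all pairs of probes with 1 symbol. CCNH was closest to TAF1B (0.79) and CDK7 to TAF7 (0.96). These distances are descriptions over 4 arrays that share RT210B.

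GTF2H3, the p34 subunit of the TFIIH core, differed from the kinase pair in that it did not pass. It lay at -0.76 and 0.17 in mixture 1 and at 0.24 and 0.05 in mixture 2, with overlapping mixtures. Its mean in mixture 1 was -0.30, with a 95% interval from -1.04 to 0.44 (limma adjusted p 0.477). The difference between GTF2H3 and the kinase pair was not tested.

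The calls of the kinase pair in mixture 1 depended on several choices. With the arrays scaled to 1 spread, CDK7 (-0.87, limma adjusted p 0.064) and CCNH (-0.87, 0.111) did not pass, and with the first spot of each pair alone they did not either (limma adjusted p 0.131 and 0.0789). CDK7 failed without replicate 2 of mixture 1 (-0.94) and CCNH without replicate 1 (-0.85).

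GTF2F2, the smaller TFIIF subunit that binds RNA polymerase II, had centred ratios of 1.10 and 1.13 in mixture 1 and of 0.88 and 0.34 in mixture 2. It was positive on all 4 arrays, with close replicates in mixture 1. The mean in mixture 1 was 1.11 (SE 0.297, 2 arrays; limma adjusted p 0.0187), or 2.16-fold. GTF2F2 and TCEA1 were the 2 of 10 genes positive on all 4 arrays, against 25.8% of all probes. TCEA1, the elongation factor TFIIS that restarts a backtracked polymerase, lay at 0.24 and 0.40 in mixture 1 and at 0.36 and 0.09 in mixture 2. Its values overlapped between mixtures, and its mean of 0.32 in mixture 1 (95% interval -0.33 to 0.98) did not pass (limma adjusted p 0.383).

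The value of GTF2F2 depended on how the agreement of duplicate spots over all probes was handled. Its spots differed by 0.06 (log2, mean over 4 arrays), less than on 96.9% of probes. The 115 probes with the closest spots, GTF2F2 among them, had median log2 ratios of 1.17 in mixture 1 and 0.56 in mixture 2, and 76.5% of them passed on the positive side in mixture 1. Once the dependence of ratio on spot difference was removed, GTF2F2 was at -0.003 in mixture 1 (limma adjusted p 0.994). Over the 389 probes with spots within 0.5 on every array, centred anew, it was at 0.28 (0.239). Scaling the arrays to 1 spread gave 0.80 (0.063), again without a call.

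For the other genes the spot difference was less extreme. It averaged 0.27 for CCNH, 0.31 for TAF1B and 0.34 for TAF7, below the median of 0.37 over all probes, and 0.58 for CDK7 and 0.59 for TAF12, above it. The 116 probes with the widest spot differences, among them GTF3C1 at 0.91, had medians of -0.12 in mixture 1 and -0.72 in mixture 2. With the trend removed TAF1B (-1.57), TAF7 (-1.14) and GTF3C1 (1.53) still passed in mixture 1, while TAF12 (-1.97, limma adjusted p 0.0531), CCNH (-1.30, 0.0543) and CDK7 (-0.74, 0.121) did not. In that setting 18.6% of all probes passed. Spot brightness was not analysed here, and its part in these values was not tested.

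**Figure D2:**
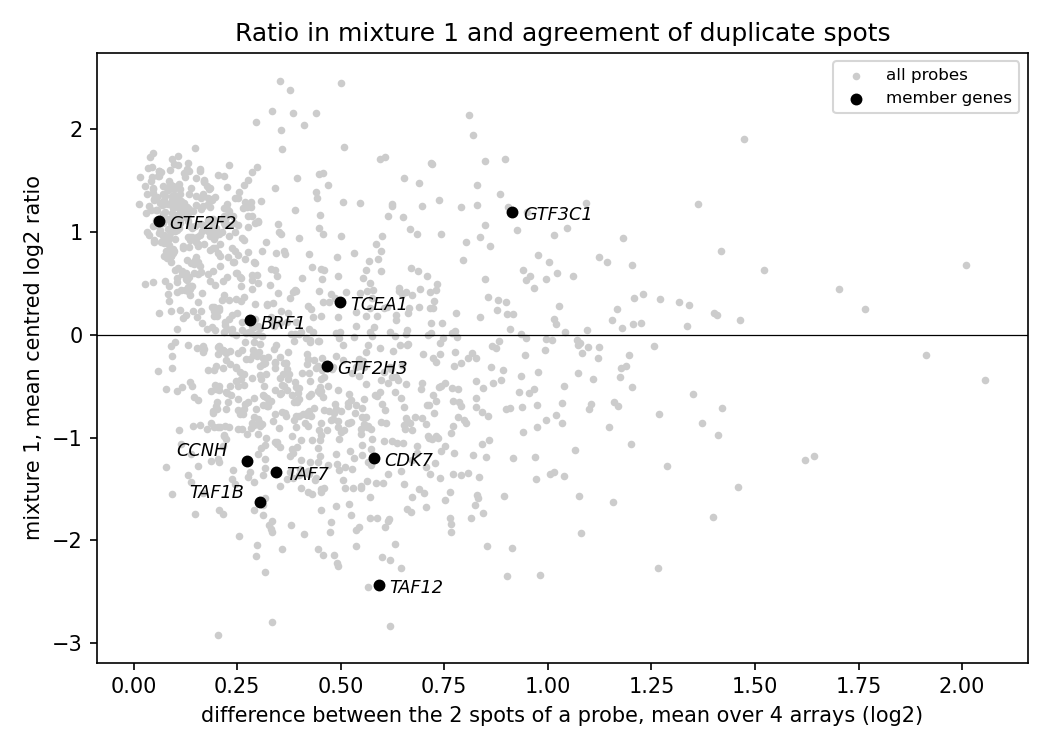
Mean centred log2 ratio in mixture 1 (vertical axis) against the difference between the 2 spots of a probe, averaged over the 4 arrays (horizontal axis, log2). Grey points are all 1152 probes and black points the 10 genes. GTF2F2 (0.06) lies in the dense group of positive probes with close spots, and the 5 genes that passed on the negative side lie between 0.27 and 0.59.

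Among the factors of RNA polymerase III, GTF3C1, the largest TFIIIC subunit, which contacts the promoter inside transfer RNA genes, lay on opposite sides in the mixtures. It had centred ratios of 0.79 and 1.62 in mixture 1 and of -1.65 and -0.75 in mixture 2. The means were 1.20 (SE 0.351, limma adjusted p 0.0243) and -1.20 (SE 0.351, limma adjusted p 0.248), so that the mean of both mixtures was 0.00. The unadjusted limma p-values were 0.00799 in mixture 1 and 0.00801 in mixture 2. Only the adjustment over all probes set the 2 calls apart. GTF3C1 was 1 of 2 genes, with BRF1, that were positive on both arrays of mixture 1 and negative on both of mixture 2, a pattern of 6.60% of all probes. In mixture 1 it failed with the second spot of each pair alone (0.57, limma adjusted p 0.335), with the arrays scaled to 1 spread (0.88, 0.062) and without replicate 2 (0.79, 0.148).

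BRF1, the TFIIB-like subunit of TFIIIB, had centred ratios of 0.17 and 0.11 in mixture 1 and of -0.35 and -0.53 in mixture 2. The replicates were close in both mixtures, and neither mean passed over all probes. The mean was 0.14 in mixture 1 (95% interval -0.51 to 0.79; limma adjusted p 0.707) and -0.44 in mixture 2 (-1.09 to 0.21; 0.378). Without centring, BRF1 was at -0.03 in mixture 1 and -0.92 in mixture 2. BRF1 passed on the negative side in mixture 1 over the 389 probes with close spots, centred anew (-0.69, limma adjusted p 0.0346). In that setting it also passed in the mean of both (-0.79, limma adjusted p 0.0117). Counting either sign, 34.7% and 29.3% of those probes passed. The new centring moved the middle of the arrays of mixture 1 by 0.75 and 0.90, and of mixture 2 by 0.56 and 0.34.

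Apart from BRF1 and GTF3C1, the 10 genes had means nearer to the middle in mixture 2 than in mixture 1. BRF1 lay farther out in mixture 2 (-0.44, against 0.14 in mixture 1). GTF3C1 lay about equally far out in both (1.20 in mixture 1 and -1.20 in mixture 2). Ratios over all probes were also spread less widely in mixture 2 (SD 0.80 and 0.47, against 1.14 and 1.05 in mixture 1). Of the 10 genes, 6 had positive and 4 negative means in mixture 2. The median of the 10 genes was 0.18, against -0.003 over all probes. After adjustment 0 of the 10 genes and 0% of all probes passed in limma. An unadjusted limma p under 0.05 was reached by GTF3C1 alone among the 10 genes, and by 19.6% of all probes. CCNH had the largest positive mean after GTF2F2 (0.61), at 0.52 (95% interval -0.35 to 1.39). The intervals of TAF12 (-0.77 to 1.46), TAF1B (-0.42 to 1.12), TAF7 (-0.97 to 0.42) and CDK7 (-1.07 to 0.36) all held 0. GTF3C1 passed at -1.69 without centring (limma adjusted p 0.0201), at -1.56 with arrays scaled to 1 spread (0.0182) and on the 2 arrays of mixture 2 alone (0.00558), settings in which 17.9%, 22.7% and 9.81% of all probes passed.

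The difference between the mixtures was asked for each gene as mixture 1 minus mixture 2. TAF12 (-2.77, SE 0.693), TAF1B (-1.98, SE 0.481) and CCNH (-1.74, SE 0.540) had the largest negative differences, and GTF3C1 the largest positive one (2.40, SE 0.496). TAF12 had the 2nd lowest and GTF3C1 the 10th highest difference of 1152 probes. None passed in limma on the centred values of the 4 arrays: the adjusted p was 0.0732 for GTF3C1, 0.0905 for TAF1B, 0.0911 for TAF12, 0.115 for CCNH and 0.185 for TAF7 (-1.05). An unadjusted p under 0.05 was reached by these 5 of the 10 genes and by 23.9% of all probes, and 0% passed after adjustment.

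The 3 TBP-associated factors, CDK7 and CCNH had both arrays of mixture 1 below both arrays of mixture 2, 5 of 10 genes against 26.0% of all probes. GTF2F2, BRF1 and GTF3C1 had both above, 3 of 10 against 36.2%. TAF1B was the 1 gene negative on both arrays of mixture 1 and positive on both of mixture 2, as were 4.95% of all probes. Both mixtures were set against the same RT210B, so their values are given side by side only. For CDK7 (-0.84, 95% interval -1.86 to 0.18), GTF2F2 (0.51, -0.45 to 1.46) and TCEA1 (0.10, -0.83 to 1.02) the interval of the difference held 0 and was wide. GTF3C1 passed without centring (2.72, limma adjusted p 0.0245). TAF12, TAF1B, CCNH and GTF3C1 passed without replicate 2 of mixture 1 (18.5% of all probes passed) and also without replicate 2 of mixture 2 (5.82%). Without replicate 1 of mixture 1, TAF12 and GTF3C1 passed (8.25%), and without replicate 1 of mixture 2 none of the 10 genes did (0%). The mixture concerned then has 1 array, assumed to vary like the other mixture.

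**Figure D3:**
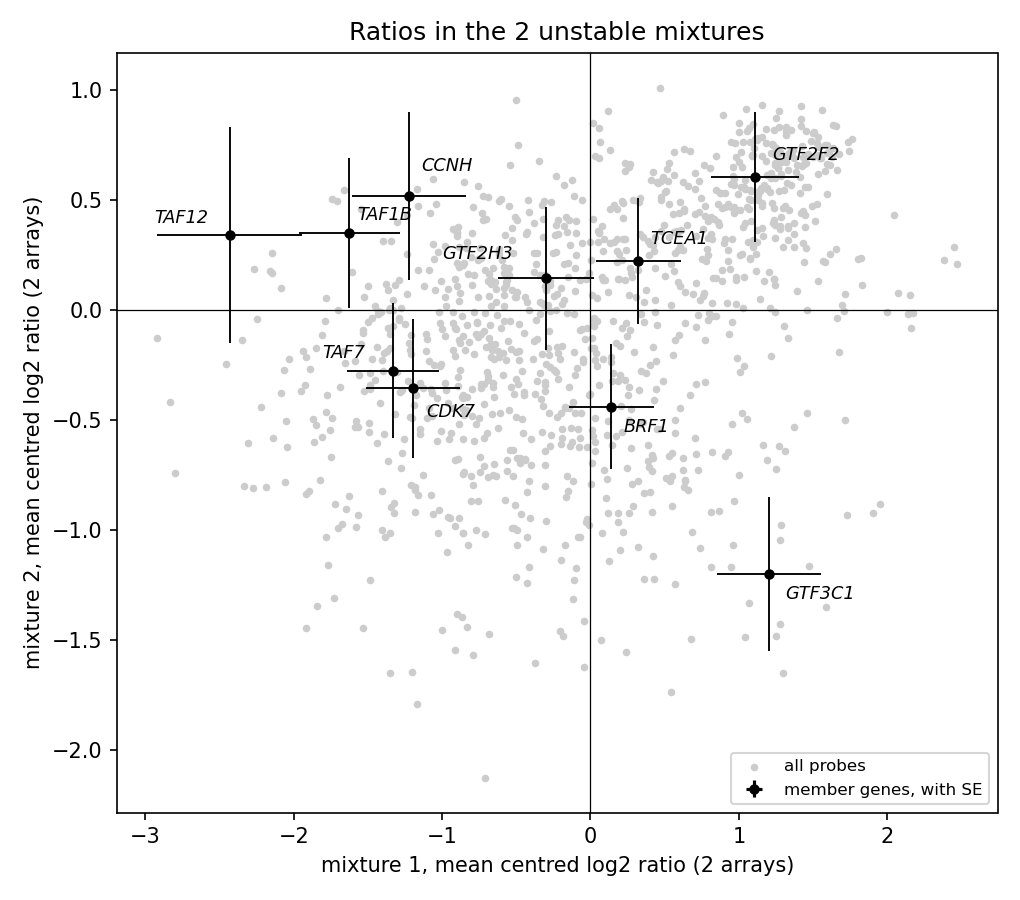
Mean centred log2 ratio over 2 arrays in mixture 1 (horizontal axis) and mixture 2 (vertical axis) for all 1152 probes (grey) and the 10 genes (black, bars are the SE of the fit). GTF3C1 lies at 1.20 and -1.20, and TAF12 at -2.43 and 0.34. GTF2F2 lies on the positive side in both mixtures and TAF7 and CDK7 on the negative side in both.

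For the mean of both mixtures, 4 of the 10 genes passed in limma, against 38.7% of all probes. TAF12 (-1.05, SE 0.346), TAF7 (-0.80, SE 0.217) and CDK7 (-0.77, SE 0.223) passed on the negative side, 3 of 10 against 17.0% of all probes, with limma adjusted p-values of 0.0416, 0.02 and 0.0258. GTF2F2 passed on the positive side (0.86, SE 0.210, adjusted p 0.0149), 1 of 10 against 21.7%. TAF7 and CDK7 were negative and GTF2F2 positive on 4 of 4 arrays, whereas TAF12 was negative on 3 of 4. TAF1B (-0.64, limma adjusted p 0.063) and CCNH (-0.35, 0.324) did not pass. The count of genes passing was 0 with the trend on the spot difference removed, where 6.34% of all probes passed. With the first spot of each pair alone it was 2, where 30.9% of all probes passed. It was 2 without replicate 1 of mixture 1 (CDK7 and GTF2F2; 41.6% of all probes passed) and 5 without replicate 2 of mixture 1 (the 4 genes and TAF1B; 43.8%). It was 1 without replicate 1 of mixture 2 (TAF12; 19% of all probes) and 2 without replicate 2 of mixture 2 (CDK7 and GTF2F2; 28.2%).

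The centring sets how many calls fall on each side. Of the calls over all probes, 43.5% were negative in mixture 1 and 43.9% in the mean of both, against 55.7% and 77.8% without centring. Among the genes described here, the same 7 passed in mixture 1 without centring, where 45.5% of all probes passed. Their values ran from -2.60 for TAF12 to 1.03 for GTF3C1. In mixture 2, TAF12 (-0.14), TAF1B (-0.13), GTF2H3 (-0.34) and TCEA1 (-0.26) had negative means without centring and positive ones with it.

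**Figure D4:**
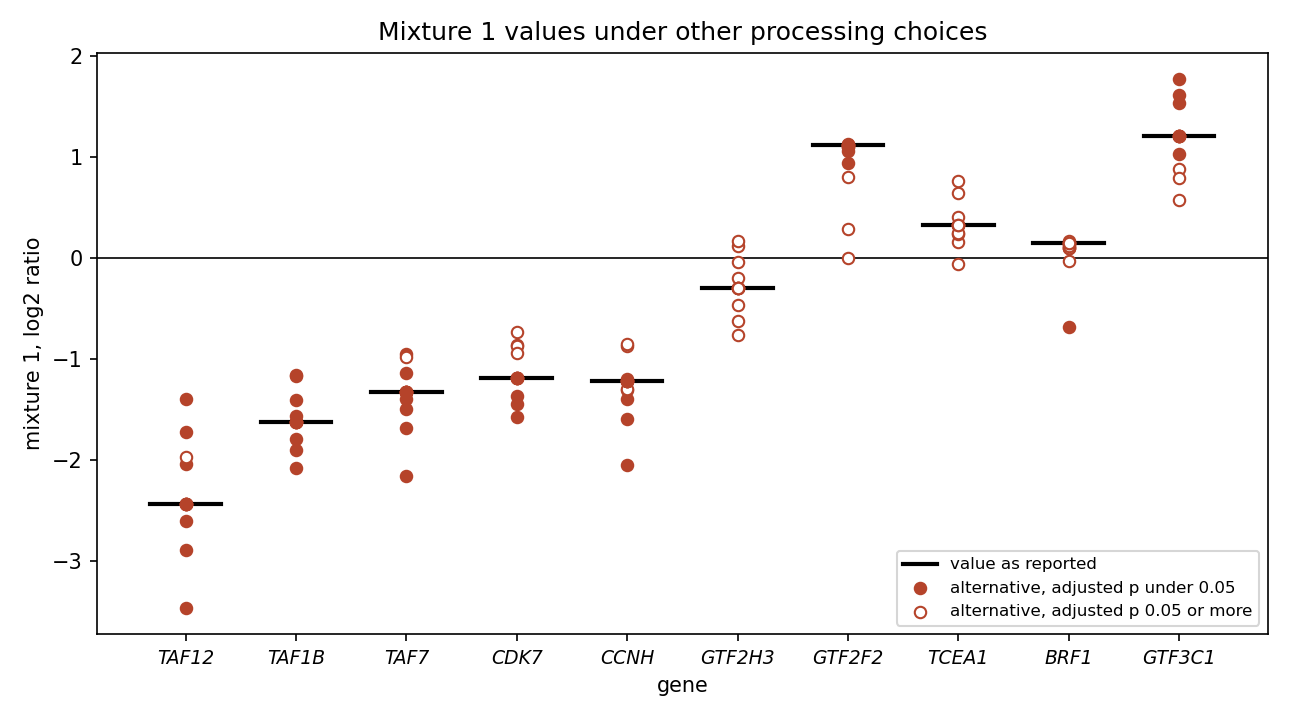
Log2 ratio in mixture 1 (vertical axis) of the 10 genes as reported (black bars) and under 12 or 13 other processing choices (circles, filled where the limma adjusted p was under 0.05). TAF1B is filled throughout its 12 choices, which do not include that of close paired spots. The lowest and highest circles are -3.46 and -1.40 for TAF12, and for GTF2F2 they run from -0.003 to 1.13.

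Other genes of the same pathways were few on the array. Of 163 symbols listed for the basal transcription and elongation machinery, older names included, 11 were on a probe with 1 symbol: the 10 genes above and ELOC, elongin C. ELOC lay at 2.30 and 2.47 in mixture 1 and at -0.16 and 0.62 in mixture 2, and passed on the positive side in mixture 1 and in the mean of both. Beside the 10 genes already counted, the list thus adds 1 positive call in mixture 1 and 1 in the mean of both, and 0 in mixture 2. Of all probes, 24.4% passed on the positive side in mixture 1 and 21.7% in the mean of both.

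Of nucleotide excision repair, in which TFIIH opens the damaged DNA, 8 listed genes were measured, 4 of them already described. RPA3, the smallest subunit of the single-strand binding protein RPA, lay at -2.11 and -1.63 in mixture 1 and at -0.99 and 0.01 in mixture 2, and passed in mixture 1 (-1.87, limma adjusted p 0.00821) and in the mean of both (-1.18, 0.0106). RPA1 (0.11), the replication clamp loader subunit RFC3 (0.72) and the ligase LIG3 (-0.80) did not pass in mixture 1, nor in any other comparison. Without the genes already described, the repair list had 1 negative and 0 positive calls among 4 in mixture 1 and the same in the mean of both, where 18.8% and 17.0% of all probes passed on the negative side.

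Of the list of cyclins and cyclin-dependent kinases, which also holds WEE1, 6 genes were measured. CDK18, a PCTAIRE-family kinase, was even over the arrays, at -0.86 and -0.91 in mixture 1 and -0.90 and -0.99 in mixture 2, and passed in mixture 1 (-0.89, limma adjusted p 0.0334) and in the mean of both (-0.92, 0.0109). WEE1, the inhibitory kinase of mitotic entry, passed on the positive side in the same 2 comparisons (1.08 and 0.92). The G1 kinase CDK6 (0.23 in mixture 1, 0.63 in mixture 2) and CDK16 (0.02 and -0.04) did not pass. Without CDK7 and CCNH, the list had 1 negative and 1 positive call among 4 in mixture 1, against 18.8% and 24.4% of all probes. Of coactivator and histone acetyltransferase complexes, some of which share TAF12 with TFIID, 3 genes were measured, TAF12 among them. The histone chaperone RBBP4 passed on the positive side in mixture 1 (1.30, limma adjusted p 0.0493), with 1.23 and 1.37 on its arrays against -2.73 and -0.57 in mixture 2, and the acetyltransferase KAT6A did not pass (-0.74 and -0.35). In mixture 2 and in the difference between mixtures, no gene of the 4 lists passed.

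The genes most like TAF12, TAF1B, CDK7 and CCNH were taken as the nearest by Euclidean distance over the 4 centred arrays among probes with 1 symbol. For TAF12 these were the ephrin gene EFNB2 (distance 1.17) and ZXDC (1.21), where the median distance to such probes was 4.14. For TAF1B they were EFNB2 (0.43) and the Hedgehog receptor gene PTCH1 (0.56), with a median of 2.90. EFNB2 had centred ratios of -2.40 and -1.01 in mixture 1 and of 0.90 and 0.09 in mixture 2, the order of the arrays seen for TAF1B. The protease gene MMP14 (0.48) and ID3 (0.63) were nearest to CDK7, and KLHL9 (0.40) and STK17B (0.68) to CCNH. KLHL9, a substrate adaptor of a cullin ligase, lay at 1.02 on replicate 1 of mixture 2, the array on which CCNH was at 1.18.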

How the data were processed

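The authors deposited 1 log2 channel ratio for each of 2304 spots per array, with a median that is not 0 on any array. Per the labels, normalization factors of 3.8 (mixture 1 replicate 2) and 1.169 (mixture 2 replicate 1) are named. Not given in the sources used here: what they acted on, the dyes, the scanner and the background correction. The number of arrays limits the precision, and brightness was not analysed here.

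Adjacent spots, taken as duplicates from the platform annotation since the labels do not say so, were averaged to 1152 probes, named through GEO's platform annotation where it gives 1 symbol (350 probes; 8 had several and 794 none). Each array was centred on its median. limma 3.58.1 in R 4.3.3 (lmFit, eBayes; 1 mean per mixture, 4 arrays, 2 residual and 6.69 prior degrees of freedom) tested all probes, with Benjamini-Hochberg adjustment and a threshold of 0.05; the fit was tested on simulated data. RT210B enters as 1 control sample, so its own spread is left out. All 10 genes are named, with listed pathway genes that passed, every gene of lists with up to 6 measured, and the 2 nearest probes for 4 of the genes. Members and lists were chosen with earlier results of these data known. Alternatives covered centring, spread, spot choice, duplicate agreement, samples fitted, variance prior, replicate block and each array left out.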

Additional observations from a re-analysis of the deposited data

Results flagged for a closer look

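GTF3C1, TAF1B and BRF1 lay on opposite sides of the array's middle in the mixtures, with every array of a mixture on 1 side. GTF3C1 was positive in mixture 1 and negative in mixture 2, with a difference of 2.40 (log2, limma adjusted p 0.0732). It kept this on the deposited, uncentred scale, at means of 1.03 and -1.69. TAF1B was negative in mixture 1 and positive in mixture 2, with a difference of -1.98 (limma adjusted p 0.0905), and without centring its mean in mixture 2 was -0.13. BRF1 had the smallest difference, 0.58 (limma adjusted p 0.362), and without centring it was negative in both mixtures (-0.03 and -0.92). None of these differences passed on the centred values in limma, and that of GTF3C1 passed without centring (2.72, limma adjusted p 0.0245).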

How the results depend on the processing

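Of the values of single genes recomputed under other choices, 396 kept their side of 0 and of the threshold, 32 lost and 22 gained a call, and 26 changed sign. Except where a setting's construction is named, the cause was not tested. In mixture 1, the 7 genes and 497 probes that passed became 3 and 231 with arrays scaled to 1 spread, 3 (TAF7, CCNH and BRF1, the last not among the 7) and 135 over probes with close paired spots (389 tested, 4 of the 10 genes among them), and 3 and 214 with the trend on the spot difference removed. In mixture 2, 0 and 0 became 1 and 206 without centring, 1 and 262 with arrays scaled, and 1 and 113 on its 2 arrays alone. In the mean of both, 4 and 446 became 2 and 356 with the first spot alone and 0 and 73 with the trend removed. Over probes with close spots, 114 passed in the mean of both. In the difference, 0 and 0 became 1 and 47 without centring, 1 probe with close spots, and 2 and 36 in the fit with a replicate block (TAF12 and GTF3C1, limma adjusted p 0.0275 and 0.0265). The block changed no other count of these genes. Arrays with the same number deviated from their mixture means with r = -0.0979 across probes, and the labels tie them by that number only. This correlation cannot show whether they shared a batch. With 1 array left out, 5 to 7 genes passed in mixture 1, 0 to 1 genes and 0 to 113 probes in mixture 2, 1 to 5 genes and 219 to 505 probes in the mean, and 0 to 4 genes and 0 to 213 probes in the difference. Those fits, and that on the 2 arrays of mixture 2, have 1 residual degree of freedom and a prior that takes nearly 1 spread for all probes, which makes their calls follow the size of the value.

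Without centring, the values that changed sign were BRF1 in mixture 1 (-0.0282), TAF12 (-0.14), TAF1B (-0.13), GTF2H3 (-0.34) and TCEA1 (-0.26) in mixture 2, and TCEA1 (-0.0543) and GTF3C1 (-0.33) in the mean. With arrays scaled they were GTF3C1 in the mean (-0.34) and TCEA1 in the difference (-0.0399). With the second spot alone they were TCEA1 in mixture 1 (-0.0615) and the difference (-0.30), and GTF2H3 (0.0936) and GTF3C1 (-0.19) in the mean. With the trend removed they were GTF2H3 in mixture 1 (0.12) and the mean (0.19), and GTF2F2 in mixture 1 (-0.00297) and the difference (-0.0197). BRF1 went to -0.69 in mixture 1 over probes with close spots, where centring anew moved the middle of the arrays of mixture 1 by 0.75 and 0.90. With 1 array left out, GTF2H3 ran from -0.76 to 0.17 in mixture 1, from -0.31 to 0.16 in the mean and from -0.91 to 0.0202 in the difference, TAF12 from -0.23 to 0.92 and CCNH from -0.14 to 1.18 in mixture 2, GTF3C1 from -0.23 to 0.23 in the mean, and TCEA1 from -0.0392 to 0.23 in the difference.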
